A study of Mus musculus with 4 samples.

Results

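Eosinophils, basophils and mast cells are granule-bearing cells of allergic and antiparasite responses, and their granule and receptor genes were examined in 4 arrays of sorted mouse marrow cells. The members were 10 genes given by symbol, and every probe carrying one of those symbols in the deposited annotation was taken. This gave 11 probes of the 55677 on the array, since Slc18a2 had 2 probes. Of the members, 3 encode eosinophil granule proteins (Prg2, Prg3 and Epx). The other 7 belong to mast cells and basophils (Cpa3, Mcpt8, Ms4a2, Fcer1a, Hdc, Slc18a2 and Cd200r3). The arrays held RNA of LSK cells, the marrow fraction without lineage markers and with Sca-1 and c-Kit, where blood stem cells and early progenitors are found. The knockout group had 2 arrays from mice of strain C57Bl/6J with the genotype label EZH1 knockout, and the control group had 2 arrays from C57Bl/6J mice with no genotype label. Ezh1 encodes a histone methyltransferase that works within a polycomb complex. The age and sex of the mice, the deleted part of Ezh1 and any agent given are not in the sources used here. The labels do not tie the replicates to separate mice, and p-values here therefore reflect the spread among 4 samples that may be partly technical.

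Eosinophils store major basic protein and eosinophil peroxidase in their granules and depend on interleukin-5. Basophils and mast cells carry the high-affinity IgE receptor, store histamine and proteases, and release them when antigen crosslinks the receptor. All of these cells arise from marrow progenitors in which GATA and C/EBP transcription factors guide the choice of fate, and mast cells, like LSK cells, carry c-Kit. The LSK gate leaves out cells with markers of mature lineages. In RNA of a bulk sample, fewer cells of a type and less RNA per cell cannot be told apart.

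To show the sequence in front of these genes, promoter windows are printed for the 2 eosinophil genes with a window in the table (Prg3 and Epx), for the mast cell protease gene Cpa3 and for Slc18a2, the member that was lower on both knockout arrays. Each window holds the 250 bases before the transcript start, 5′ to 3′ on the gene's strand, from RefSeq on build GRCm38.p6. Capitals mark GATAA, the core of the GATA factor motif, or TTATC, its reverse complement.
Prg3: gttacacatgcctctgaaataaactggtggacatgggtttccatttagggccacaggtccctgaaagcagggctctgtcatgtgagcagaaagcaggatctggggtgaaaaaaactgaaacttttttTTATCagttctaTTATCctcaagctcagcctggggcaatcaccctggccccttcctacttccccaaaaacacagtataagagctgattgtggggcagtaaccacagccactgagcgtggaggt
Epx: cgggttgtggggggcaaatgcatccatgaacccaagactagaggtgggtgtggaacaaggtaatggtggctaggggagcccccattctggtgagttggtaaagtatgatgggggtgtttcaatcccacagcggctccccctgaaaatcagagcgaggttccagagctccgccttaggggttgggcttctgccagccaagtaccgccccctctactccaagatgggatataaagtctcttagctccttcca
Cpa3: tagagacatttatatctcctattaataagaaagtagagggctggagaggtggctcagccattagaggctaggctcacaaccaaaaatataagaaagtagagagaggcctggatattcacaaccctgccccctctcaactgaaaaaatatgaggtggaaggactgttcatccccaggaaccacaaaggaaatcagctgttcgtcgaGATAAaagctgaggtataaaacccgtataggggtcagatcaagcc
Slc18a2: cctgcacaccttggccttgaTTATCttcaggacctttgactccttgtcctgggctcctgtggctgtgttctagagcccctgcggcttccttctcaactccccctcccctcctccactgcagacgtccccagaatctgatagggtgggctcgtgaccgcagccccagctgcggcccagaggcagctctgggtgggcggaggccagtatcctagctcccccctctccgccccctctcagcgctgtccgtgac
The Prg3 window is chr2:84987965-84988214 (plus strand), the Epx window chr11:87875537-87875786 (minus strand), the Cpa3 window chr3:20242182-20242431 (minus strand) and the Slc18a2 window chr19:59260628-59260877 (plus strand).

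Of the 10 members, 9 had a window in the table, and Prg2 had none. GATAA was present on either strand in 6 of the 9, against 22.6% of all 32851 promoter windows of the same length. In Cpa3 the match began at base -45, where -1 is the last base before the start. In Prg3 the 2 matches began at -123 and -111, and in Slc18a2 the match began at -230. Ms4a2 had 3 matches (-224, -37 and -10), Cd200r3 2 (-115 and -38) and Fcer1a 1 (-92). No GATAA was found in the windows of Epx, Mcpt8 and Hdc. A C/EBP-type motif, TTNNGNAA on either strand, was found in Prg3, Fcer1a and Cd200r3, which is 3 of 9 against 36.8% of all windows. No match of one motif overlapped a match of the other, by their positions. These matches describe letters and are not binding sites. Prg2 and Prg3 are direct neighbours among the protein-coding genes of chromosome 2, and Mcpt8 stands between Mcpt4 and Ctsg on chromosome 14.

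The arrays differed in brightness, with a 75th percentile between 1095 and 1690 and a limit of detection, set at each array's 20th percentile, between 12.4 and 87.3. Values below are given as the deposited intensity and as the scaled log2 value, which is the log2 intensity minus the log2 of its array's 75th percentile. For the LSK label, 11 marker genes were looked up, which included Kit, Ly6a, Cd34 and Flt3. All 11 were above the filter, and 10 were detected on every array, the exception being Slamf1, detected on 1 of 2 knockout arrays. Of all 55677 probes 43759 were above the filter, so this does not tell LSK cells from other marrow cells. The brightest of 4 Ezh1 probes read 2069 and 3730 on the knockout arrays against 2658 and 2620 on the controls, and its groups differed by 0.27 in log2 (95% interval -0.47 to 1.01). The other 3 Ezh1 probes gave -1.15, 0.13 and -0.086, none past the threshold, and the probes check nothing if they lie outside the deleted part. Protocols list 16, 16, 19 and 18 amplification cycles without naming the sample of each, so their part in the values was not tested.

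Each of the 3 eosinophil granule genes had both knockout arrays above both controls, from 1.99-fold for Prg3 to 3.74-fold for Prg2, and their median was 1.53 as a log2 fold change (2.89-fold). The 7 mast cell and basophil genes did not share a direction: 5 were higher on average, 2 were lower, and their median was 0.51 (1.42-fold). Over both groups 8 of 10 members were higher on average, against 52.1% of all genes and 55.8% of all probes. The median over all 19287 genes with a symbol was 0.03. No member was past the threshold over all probes. With limma, 0 of 43759 probes (0%) had an adjusted p under 0.05, 2513 (5.74%) had an unadjusted p under 0.05, and adjusted p for the members ranged from 0.780 to 0.992. All 11 member probes passed the filter on low values.

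**Figure D1:**
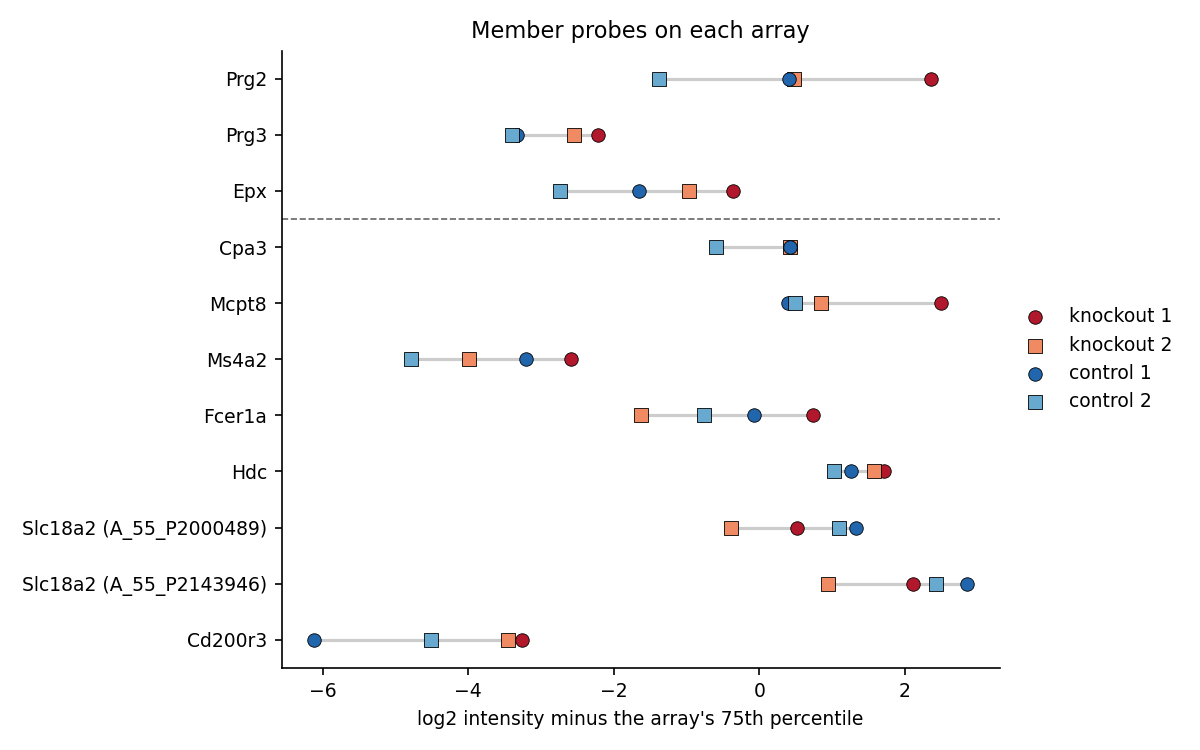
Scaled log2 value of each of the 11 member probes on each array (horizontal axis: log2 intensity minus the array's 75th percentile). Red circles and orange squares are knockout arrays 1 and 2, dark blue circles and light blue squares are control arrays 1 and 2, grey lines span the range, and the dashed line separates eosinophil from mast cell and basophil genes. Prg3 and Epx have both knockout arrays clear of both controls, Prg2 has knockout 2 beside control 1, and both Slc18a2 probes have the knockout arrays on the low side.

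Prg2 encodes major basic protein, the main constituent of the eosinophil granule core. Its intensity (probe A_51_P363400) was 5607 and 2353 on the knockout arrays against 2108 and 591 on the controls. The scaled log2 values were 2.36 and 0.48 on the knockout arrays against 0.40 and -1.37 on the controls. Knockout array 1 was high and control array 2 was low, while knockout array 2 lay only 0.074 above control array 1. The log2 fold change was 1.90 with a wide interval (95% interval -0.86 to 4.66, limma adjusted p = 0.780, n = 2 per group). Within the groups the SD was 1.33 and 1.26. Leaving out knockout replicate 1 gave 0.96 and leaving out control replicate 2 gave 1.01, while leaving out control replicate 1 gave 2.79 and leaving out knockout replicate 2 gave 2.84.

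Prg3 encodes a homologue of major basic protein and is the next protein-coding gene. Its intensity (probe A_51_P363729) was 237 and 290 on the knockout arrays against 158 and 145 on the controls. The scaled log2 level was -2.38 ± 0.23 on the knockout arrays against -3.37 ± 0.05 on the controls (SD, 2 arrays per group). Both knockout arrays stood above both controls, by 0.79 at the closest. Its log2 fold change was 0.99 (95% interval 0.21 to 1.78, limma adjusted p = 0.780). Unlike Prg2 on the same chromosome, it varied little within each group. After quantile normalization its log2 fold change was 0.72 and its groups overlapped.

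Epx encodes eosinophil peroxidase, which makes hypohalous acids in the granule. Its intensity (probe A_51_P386625) was 849 and 864 on the knockout arrays against 505 and 230 on the controls. The scaled log2 level was -0.67 ± 0.42 on the knockout arrays against -2.20 ± 0.76 on the controls (SD, 2 arrays per group). The groups did not overlap, and the knockout arrays stood at least 0.69 above the controls. The log2 fold change was 1.53 (95% interval 0.073 to 2.98, limma adjusted p = 0.780), which is 2.89-fold, and it was 0.99 without control replicate 2.

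Cpa3 encodes carboxypeptidase A3, a granule protease of mast cells that basophils and their progenitors also carry. Its intensity (probe A_51_P214127) was 1472 and 2265 on the knockout arrays against 2133 and 1015 on the controls. Scaled, knockout 1, knockout 2 and control 1 were at 0.43, 0.42 and 0.42, and control 2 was at -0.59. Control array 2 was low and the other 3 arrays were alike, with a log2 fold change of 0.51 (95% interval -0.75 to 1.77, limma adjusted p = 0.784). Without control replicate 2 it was 0.0044, and without control replicate 1 it was 1.02.

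Mcpt8 encodes a serine protease found in mouse basophils. Its intensity (probe A_51_P413059) was 6158 and 3031 on the knockout arrays against 2092 and 2155 on the controls. The controls lay close together, at 0.39 and 0.49 on the scaled log2 axis, while the knockout arrays were at 2.49 and 0.84. Knockout array 1 was well above the other 3 arrays, and knockout array 2 stood 0.35 above the nearer control. The log2 fold change was 1.22 (95% interval -0.62 to 3.07, limma adjusted p = 0.780), and it was 0.40 with knockout replicate 1 left out and 2.05 with knockout replicate 2 left out.

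Of the IgE receptor chains, the alpha and beta chain genes among the members had groups that overlapped. Fcer1a encodes the alpha chain, which binds IgE. Its intensity (probe A_55_P2120244) was 1823 and 548 on the knockout arrays against 1520 and 905 on the controls. The knockout arrays were the highest and the lowest of the 4, so that the groups overlapped and the log2 fold change was -0.031 (95% interval -2.67 to 2.60, limma adjusted p = 0.992). Between the knockout arrays the scaled value differed by 2.36 on the log2 scale (5.14-fold), more than the fitted difference between groups of any member. The sign of the Fcer1a difference turned with the array left out, from -1.21 without Ezh1 knockout replicate 1 to 1.15 without Ezh1 knockout replicate 2, and it was 0.049 with cyclic loess.

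Ms4a2 encodes the beta chain of the same receptor, which amplifies its signal. It was dim, at an intensity (probe A_55_P2176015) of 182 and 107 on the knockout arrays against 172 and 55.3 on the controls, where control 2 was below its limit of 57.6. The groups overlapped, since knockout array 2 lay below control array 1 after scaling. Fitted, the log2 fold change was 0.71 (95% interval -1.58 to 3.00, limma adjusted p = 0.798). It was -0.080 without control replicate 2 and 1.502 without control replicate 1, so its sign turns with control array 2. The gamma chain gene Fcer1g, shared with other Fc receptors and named here after its values were seen, had a log2 fold change of 0.43 (95% interval -0.52 to 1.38). Both knockout arrays were above both controls for Fcer1g, but knockout array 2 and control array 1 were nearly level after scaling.

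Hdc and Slc18a2, which act one after the other in histamine storage, had values on opposite sides of 0. Hdc encodes histidine decarboxylase, which makes histamine. Its intensity (probe A_51_P254656) was 3576 and 5059 on the knockout arrays against 3822 and 3121 on the controls. Scaled levels were 1.64 ± 0.09 on the knockout arrays against 1.14 ± 0.17 on the controls (SD, 2 arrays per group), with the knockout arrays at least 0.32 higher. The log2 fold change was 0.50 (95% interval -0.25 to 1.25, limma adjusted p = 0.780), and the groups overlapped after median centring of the arrays.

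Slc18a2 encodes the vesicular monoamine transporter 2, which loads histamine and serotonin into granules. Its brighter probe (A_55_P2143946) read 4742 and 3260 on the knockout arrays against 11513 and 8224 on the controls. The dimmer probe (A_55_P2000489) read 1572 and 1296 on the knockout arrays against 4004 and 3267 on the controls. On both probes every knockout array was below every control array, and this held under all 4 other scalings and offsets for the brighter probe. The brighter probe gave a log2 fold change of -1.11 (95% interval -2.57 to 0.35, limma adjusted p = 0.780), and the dimmer probe gave -1.14 (95% interval -2.33 to 0.052). With an array left out, the brighter probe ranged from -1.69 without Ezh1 knockout replicate 1 to -0.52 without Ezh1 knockout replicate 2. Both probes read the same RNA and are not replicates of each other.

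Cd200r3 encodes an activating receptor of mouse basophils and mast cells. It lay near the limits of detection, with intensities (probe A_55_P1990022) of 114 and 154 on the knockout arrays, where the limits were 22.8 and 87.3. On the controls it was at 23.0 and 67.2, where the limits were 12.4 and 57.6. Both knockout arrays stood above both controls, by 1.06 at the closest on the scaled log2 axis. For Cd200r3 the log2 fold change was 1.95 (95% interval 0.15 to 3.76, limma adjusted p = 0.780). It was 1.18 with an offset of 50, which damps differences of dim probes, and 1.15 without control replicate 1.

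**Figure D2:**
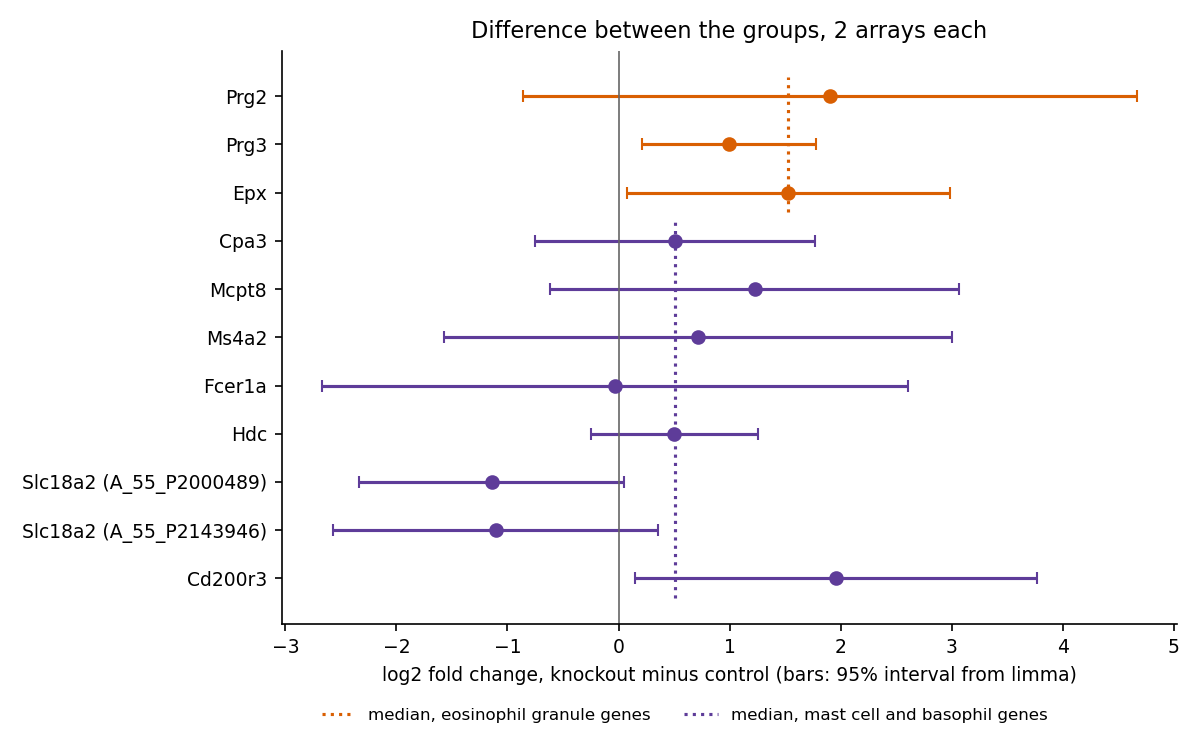
Log2 fold change of each member probe, knockout minus control, with the 95% interval from limma (2 arrays per group); orange marks eosinophil granule genes, purple mast cell and basophil genes, and dotted lines their medians of 1.53 and 0.51. The intervals of Prg3, Epx and Cd200r3 lie above 0 before adjustment, and those of the other 8 probes include 0.

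Counted over genes, 7 of 10 members had both knockout arrays above both controls, 1 (Slc18a2) had both below, and 2 (Ms4a2 and Fcer1a) overlapped. Among all 19287 genes, 17.5% were apart with the knockout arrays higher and 21.0% with the knockout arrays lower. Of the 7, Cpa3 and Prg2 were apart by less than 0.1 on the log2 scale. The eosinophil genes were apart in 3 of 3 cases with the 75th percentile, cyclic loess and an offset of 50, and in 2 of 3 after quantile normalization (Prg3 overlapped) and after median centring of the arrays (Prg2 overlapped). Of the 7 mast cell and basophil genes, 4 were apart and higher with the 75th percentile, quantile normalization, cyclic loess and the offset. That was 1 of 7 (Cd200r3) after median centring of the arrays. The shares over all genes were counted only with the 75th percentile, so the counts under other scalings have no such share beside them. An unadjusted p under 0.05 was reached by 3 of 11 member probes (Prg3, Epx and Cd200r3), against 5.74% of all probes. By the authors' deposited table, 1 of the 11 (Prg3) had a p-value under 0.05 (0.0279, ratio 1.99, up), as had 5.88% of all probes there.

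The eosinophil median stood 1.02 above the mast cell and basophil median on the log2 scale. Leaving out knockout replicate 1 took that difference to 0.56 and leaving out knockout replicate 2 to 0.68, while it was 1.05 without control replicate 1 and 0.99 without control replicate 2. The eosinophil median itself was 0.96 with knockout replicate 1 left out, 1.83 with knockout replicate 2 left out, 2.07 without control replicate 1 and 0.99 without control replicate 2. The mast cell and basophil median moved more in proportion, to 0.40 with knockout replicate 1 left out, 1.15 with knockout replicate 2 left out, 1.02 without control replicate 1 and 0.0044 without control replicate 2. Members of both kinds overlapped in log2 fold change, with Mcpt8 (1.22) and Cd200r3 (1.95) both above Prg3 (0.99). Cd200r3 was below Prg2 and Epx after quantile normalization (1.32 against 1.93 and 1.495), with cyclic loess (1.36 against 1.98 and 1.54) and with the offset (1.18 against 1.84 and 1.39). No test was made of the difference, because the members were chosen with earlier results known. A permutation of 2 arrays against 2 cannot give a two-sided p below 0.333.

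**Figure D3:**
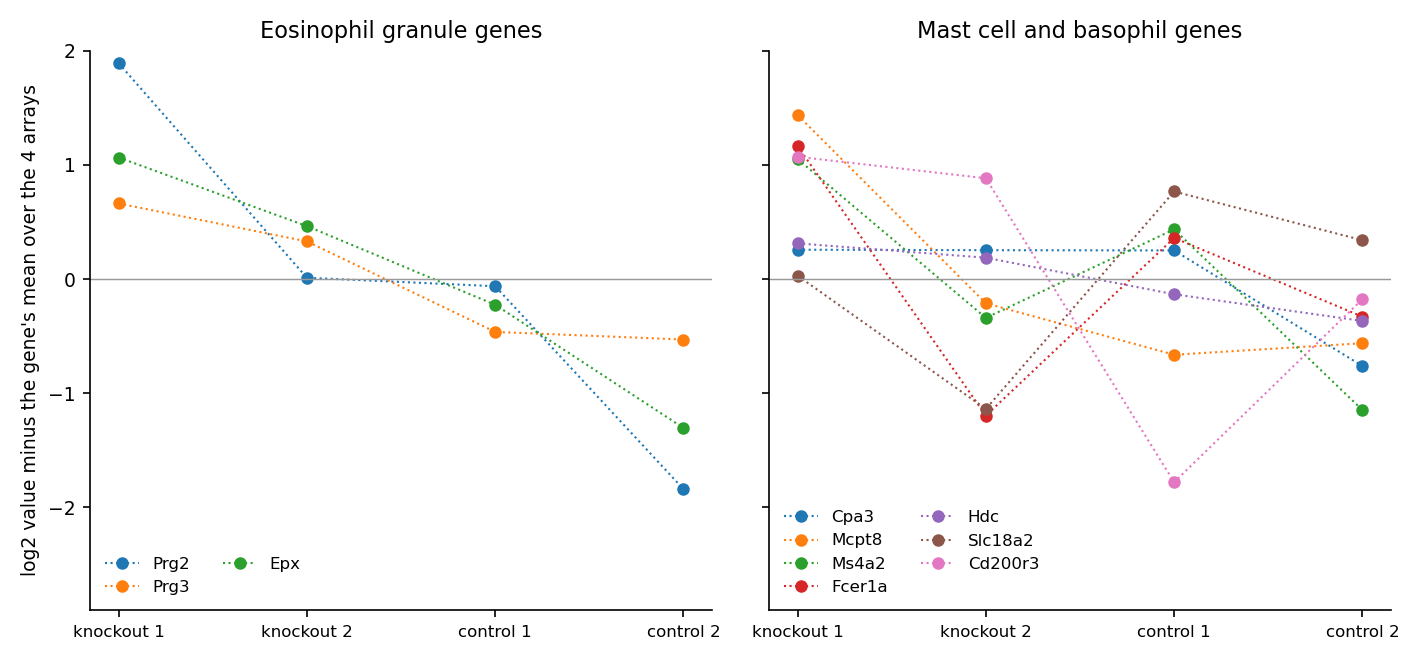
Log2 value of each gene minus its own mean over the 4 arrays, by array, for the 3 eosinophil granule genes (left) and the 7 mast cell and basophil genes (right, Slc18a2 by its brighter probe); dotted lines join the points of a gene and carry no order. The eosinophil genes are highest on knockout 1 and lowest on control 2, while the mast cell and basophil genes cross.

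Arrays of the same group also differed in these genes. All 3 eosinophil genes were higher on knockout array 1 than on knockout array 2 and higher on control array 1 than on control array 2. Of the mast cell and basophil genes, 7 of 7 were higher on knockout array 1 than on knockout array 2, and 5 of 7 on control array 1 than on control array 2. The share of all genes with this order was not counted. Over all 43759 kept probes, differences between arrays 1 and 2 correlated between the groups (r = 0.690). For Prg2 the difference within groups was 3.68-fold between the knockout arrays and 3.43-fold between the controls, beside 3.74-fold between groups. For Ms4a2 it was 2.62-fold and 2.99-fold. For Hdc it was 1.09-fold and 1.18-fold, and for Prg3 1.26-fold and 1.05-fold.

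Of 15 other eosinophil genes, 13 were above the filter, 11 of them were higher on average and 2 lower, and 0 were past the threshold, with a median log2 fold change of 0.54. Groups were apart for 3 of the 13, all higher (Alox15, Il5ra and Ear10), beside 17.5% of all genes. Alox15, a lipoxygenase, was 2.91-fold higher (log2 95% interval 0.75 to 2.34) from intensities of 53.1 and 97.0 on the knockout arrays against 26.4 and 30.4 on the controls, where it was detected on 1 of 2. Il5ra, the interleukin-5 receptor chain that binds interleukin-5, was 1.79-fold higher (log2 95% interval -0.42 to 2.09). The eosinophil-associated ribonuclease gene Ear10 was 1.52-fold higher (-0.34 to 1.56), and Ear7 was 2.50-fold higher with groups that overlapped. Ear genes, which made up most of the 11 higher genes, are near-identical copies that probes may not tell apart, so they are uncertain as separate genes.

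Among other mast cell and basophil genes, 17 of 25 were above the filter, with 12 higher on average, 5 lower, 0 past the threshold and a median log2 fold change of 0.31. The groups were apart for 5 of the 17 with the knockout arrays higher, beside 17.5% of all genes. They were apart for 2 with the knockout arrays lower, beside 21.0% of all genes. Mcpt9, a mast cell protease gene, was 1.90-fold higher (log2 95% interval 0.11 to 1.75). Prss34, a basophil protease gene, read 6455 and 1677 on the knockout arrays against 1446 and 992 on the controls. It was 3.15-fold higher (log2 95% interval -1.14 to 4.45), and like Mcpt8 it was highest on knockout array 1. Tph1, which makes serotonin in mast cells, had a log2 fold change of 2.33 (-1.47 to 6.13) and was detected on 1 of 2 controls. Il1rl1, the interleukin-33 receptor, was 1.62-fold lower (log2 95% interval -1.83 to 0.43). The other 8 genes of the list were not above the filter. In every list, no probe that stood for a gene above the filter was at an intensity of 0.

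Genes for lipid mediators had 2 of 5 measured members higher, 3 lower, 0 past the threshold and a median log2 fold change of -0.24. The 5-lipoxygenase gene Alox5 was at 0.52, its activating protein Alox5ap at -0.24, the leukotriene synthase gene Ltc4s at -0.24 and the prostaglandin D synthase gene Hpgds at -0.31.

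Regulators of granulocyte fate gave a mixed picture, with 7 of 15 higher, 8 lower, 0 past the threshold and a median of -0.02. Those with the smallest unadjusted p were Id2 (5.05-fold higher, log2 95% interval 0.97 to 3.70) and Id1 (2.82-fold higher, 0.71 to 2.29), which encode inhibitors of helix-loop-helix factors. Cebpe, needed for late granule genes of neutrophils and eosinophils, was 2.43-fold higher (0.47 to 2.09). Stat5a, which relays interleukin-3 and interleukin-5 signals, was 1.62-fold lower (-1.52 to 0.13). Further factors were picked after their values were seen. Gata2 had a log2 fold change of -0.65 (-1.57 to 0.28), Gata1 one of -0.34 and Cebpa one of 0.59 (-0.13 to 1.30). Mitf had one of -0.41 (-1.38 to 0.56), with groups that overlapped and 2 probes that differed in sign.

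Receptors for the cytokines that drive these lineages had 6 of 8 members higher, 2 lower, 0 past the threshold and a median of 0.19. Il5ra, Il1rl1 and Kit also stand in other lists given here, so the counts of these lists are not independent. Csf2rb2, the interleukin-3-specific beta chain of the mouse, was 1.56-fold higher (log2 95% interval -0.13 to 1.41). Csf2ra, the receptor chain for GM-CSF, was 1.35-fold higher (-0.32 to 1.18). Kit, the stem cell factor receptor, had a log2 fold change of -0.44 (-1.34 to 0.47).

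**Figure D4:**
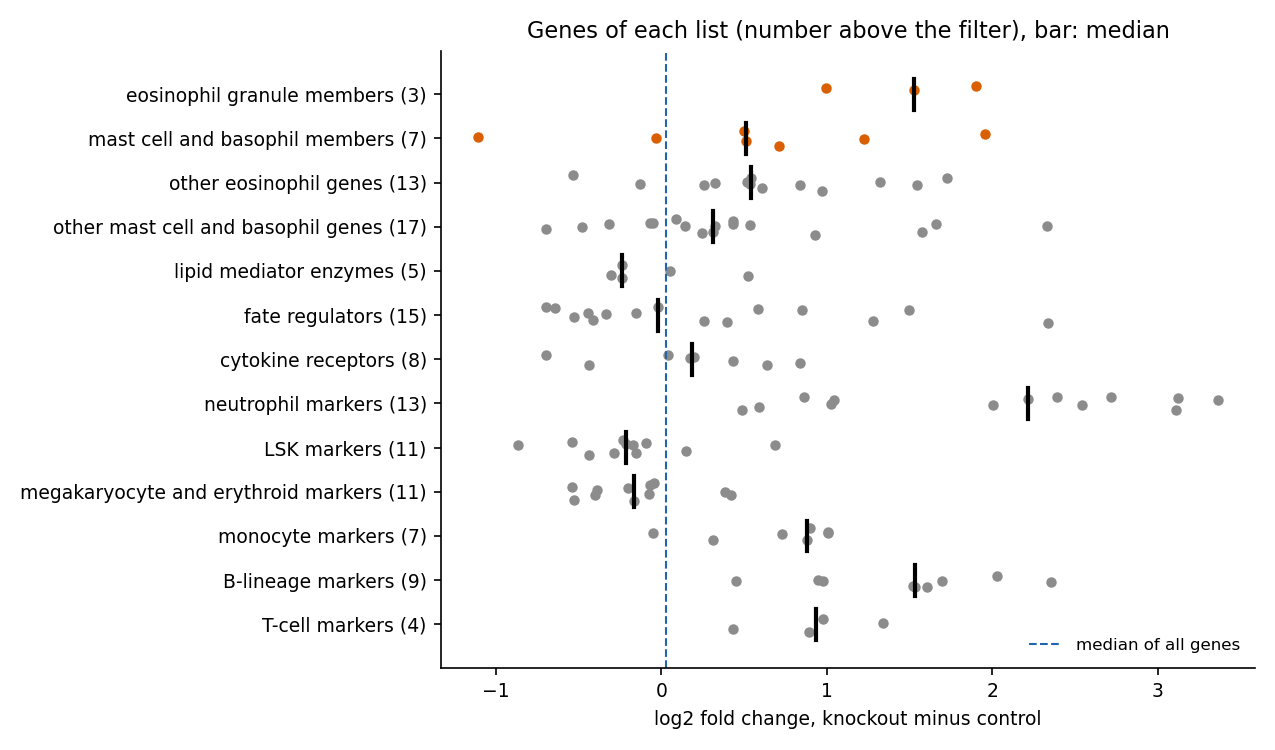
Log2 fold change of each measured gene, knockout minus control, by gene list, with the number of measured genes in brackets; orange marks the 10 members, grey the other lists, black bars the medians, and the dashed blue line the median of all genes, 0.03. Neutrophil and B-lineage markers have medians of 2.21 and 1.54, and LSK markers one of -0.21.

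Markers of other marrow cells differed on the same arrays, with 0 past the threshold. Among all genes, 17.5% were apart with the knockout arrays higher, and 52.1% were higher on average. All 13 neutrophil markers were higher on both knockout arrays, with a median log2 fold change of 2.21, and the highest was Ltf (10.3-fold). Their summed linear level, in units of the array's 75th percentile, was 162.1 and 140.6 on the knockout arrays against 68.2 and 75.8 on the controls. Most of that level came from Mpo, Elane and Ctsg, which were 1.40-, 2.04- and 1.51-fold higher. For the 3 eosinophil genes the summed level was 6.11 and 2.08 on the knockout arrays against 1.74 and 0.63 on the controls. The neutrophil sums were alike on both knockout arrays, whereas the eosinophil sum on knockout array 2 was closer to control array 1 than to knockout array 1. That sum is mostly Prg2, and for Epx and Prg3 the scaled value on knockout array 2 was closer to knockout array 1. B-lineage markers were higher in 9 of 9 cases (median 1.54), T-cell markers in 4 of the 4 measured of 5 (median 0.93) and monocyte markers in 6 of 7 (median 0.88). Megakaryocyte and erythroid markers were higher in 2 of 11 (median -0.17) and LSK markers in 2 of 11 (median -0.21). Summed levels ranged from 5.11 to 5.37 on the controls and from 8.02 to 9.28 on the knockout arrays for B-lineage markers, from 0.48 to 0.65 and from 0.76 to 1.20 for T-cell markers, and from 21.5 to 23.5 and from 32.3 to 43.8 for monocyte markers. Most of the B-lineage sum came from Cd79b, which was 1.37-fold higher. For LSK markers the sums were 51.2 to 60.7 on the controls and 43.8 to 55.1 on the knockout arrays, and for megakaryocyte and erythroid markers 98.0 to 151.4 and 99.3 to 118.4. The part of these cells in the eosinophil, basophil and mast cell values was not tested.

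By likeness of pattern over the 4 arrays, the genes nearest to the eosinophil mean were Egr1, Btbd3 and Popdc2, at root mean square distances of 0.091, 0.096 and 0.13 on the log2 scale. Those nearest to the mast cell and basophil mean were Bzrap1 (0.015), Alox5 (0.048) and Scarf1 (0.060). They were the nearest of 5653 genes over 4 arrays.

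**Figure D5:**
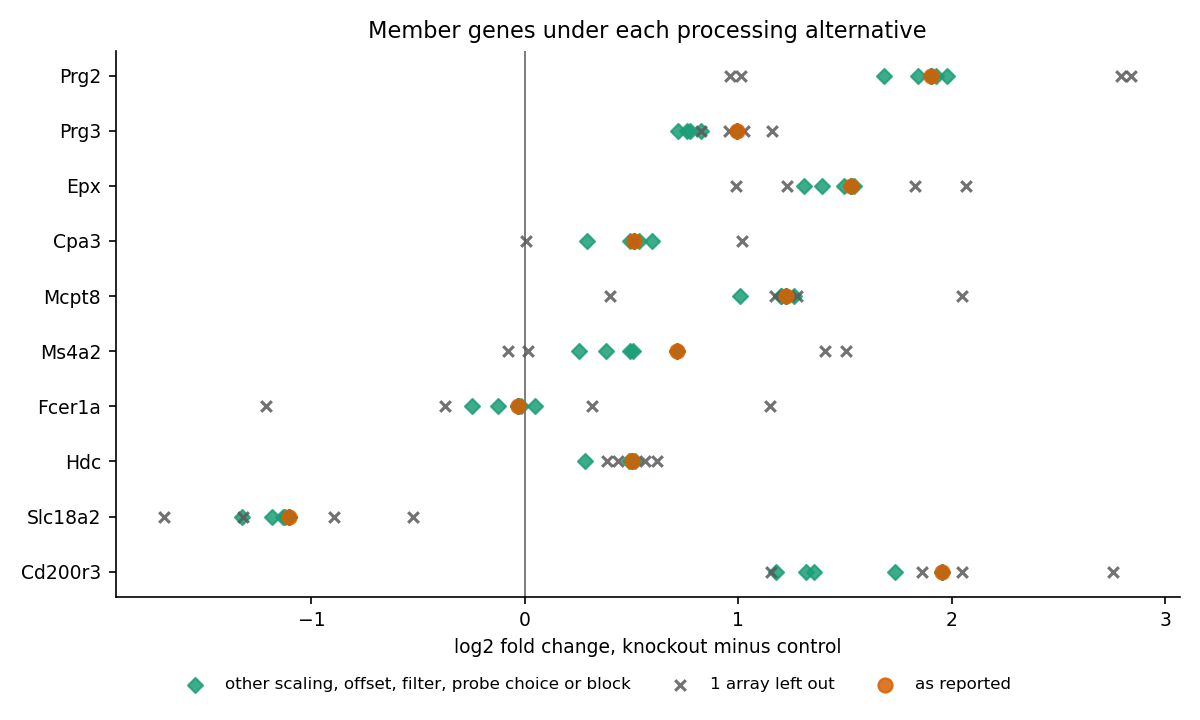
Log2 fold change of each member gene, knockout minus control, as reported (orange), under other scalings, offsets, filters, probe choice or the replicate block (green), and with 1 array left out (grey crosses). Cd200r3 goes from 1.95 to 1.18 with an offset of 50, and leaving out an array moves Prg2 from 0.96 to 2.84 and takes Fcer1a and Ms4a2 across 0.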

How the data were processed

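RNA of 4 sorted LSK cell samples was measured on 1-colour (Cy3) Agilent arrays. Per the labels' protocols, 0.1 to 5 ng of RNA was amplified before 250 ng was labelled. The authors deposited linear probe intensity from Agilent Feature Extraction (named in the submitters' processing notes), with no flags or background columns. The authors' deposited comparison table gives a p-value and an absolute ratio per probe, per the file headers; its ratios differed by at most 0.0025 (log2) from those computed here. A deposited value table of log2 values was not used: each of its 16370 filled rows matched some probe of the intensity table within 0.02, but only 611 under the same probe name.

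Intensities under 1 were set to 1, converted to log2 and scaled by each array's 75th percentile. The filter left 43759 of 55677 probes, those above their array's 20th percentile on the 2 arrays of either group. The comparison of knockout with control used limma 3.58.1 (R 4.3.3; lmFit and eBayes; 2 residual and 1.78 prior degrees of freedom), two-sided, with Benjamini-Hochberg adjustment over all kept probes and a threshold of 0.05. A gene was represented by its brightest kept probe. The scripts were tested on simulated data. At the observed variance, 0 of 50 probes were called at each planted log2 change of -2, -1, 1 and 2. At a hundredth of that variance, 38 to 49 of 50 were called. A lack of calls here therefore does not mean a lack of differences of that size. Other scalings, an offset of 50, 2 other filters, averaged probes, a replicate block, the authors' p-values and leaving out each array were tried. The members and lists were chosen with earlier results of these data known. Named genes are all members, up to 4 genes per other list with the smallest unadjusted p, Ezh1, and the 3 genes nearest in pattern to each group of members. Fcer1g, Gata1, Gata2, Cebpa, Mitf, Ccr3, Siglecf, Cd34 and Flt3 fall outside this rule. The number of arrays limits the precision.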

Additional observations from a re-analysis of the deposited data

How the results depend on the processing

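With 2 arrays per group, no setting brought a probe past the threshold: 0 probes were called by limma under each of 12 alternatives, with 0.147 (stricter filter) the lowest adjusted p of them all and 888 to 9158 probes under 0.05 unadjusted, and 0 by the authors' deposited p-values after Benjamini-Hochberg adjustment (lowest 0.156, with 3273 under 0.05 unadjusted). The eosinophil and the mast cell and basophil medians kept their sign under the 9 alternatives that could move them, ranging from 0.96 to 2.07 and from 0.0044 to 1.15, and the extremes came from leaving out an array. The difference of the medians ranged from 0.56 to 1.05 with an array left out. Of the 10 members, 8 kept their direction under each other scaling, the offset and with each array left out. Fcer1a turned to 0.049 with cyclic loess and ranged from -1.21 to 1.15 with an array left out, and Ms4a2 ranged from -0.080 to 1.502. The stricter filter, at the 40th percentile, left 5 of the 7 mast cell and basophil genes, without Ms4a2 and Cd200r3 (median 0.50). The scaling moved the median of all probes from 0.09 to -0.13 after median centring of the arrays. With the replicate number as a block, 0 probes were called (lowest adjusted p 0.206, 9158 probes, or 20.9%, under 0.05 unadjusted against 2513), and 7 of 11 member probes were under 0.05 unadjusted against 3 without it. A block cannot move fold changes in this balanced design, so the medians stay at 1.53 and 0.51 by construction. Differences between arrays 1 and 2 correlated across probes between the groups (r = 0.690), but no label says that a number marks a shared source. The alternative with the deposited value table could not be run, because its values stand beside other probe names. Dim probes limit Cd200r3 and Ms4a2 most.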
